A study of Mus musculus with 2 samples.

Results

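The Slc25 genes, which encode the mitochondrial carrier family, were described in mouse hearts of embryonic day 15.5, profiled by RNA-seq. The members were all genes annotated as protein coding in GENCODE M21 whose symbol starts with Slc25a, and 47 of the 21474 protein-coding genes in the files met this rule. The study held 1 group of 2 libraries from strain B6NCrl, each from hearts pooled over male and female embryos, 78 embryos for replicate 1 and 62 embryos for replicate 2. The labels name no treatment and no engineered allele for either library, so the design gives levels and ratios inside the tissue and no contrast between conditions. Each library was made from 10 ng of RNA longer than 200 nt, with spike-in RNA added. Both samples are pools, so every SD below is the spread between 2 pools of whole hearts and not between embryos. With 2 libraries an exact sign-flip test cannot go below p = 0.5, and each difference is therefore read against that spread.

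Mitochondrial carriers are small proteins, most of them in the inner mitochondrial membrane, that exchange nucleotides, phosphate, amino acids, carboxylic acids and cofactors between the matrix and the cytosol. The ADP/ATP carriers export the ATP made by oxidative phosphorylation and the phosphate carrier brings in the phosphate needed to make it. The aspartate-glutamate and oxoglutarate carriers run the malate-aspartate shuttle, which moves the reducing power of cytosolic NADH into mitochondria and is prominent in the heart. Several members come as paralogs or splice forms with different tissue patterns, among them Slc25a4 in muscle and Slc25a5 in most tissues.

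The sequences below are those on which the paralog and splice-form comparisons turn, taken from the GENCODE M21 transcripts on mm10 and written 5′ to 3′ on the coding strand. Slc25a3, the phosphate carrier, has a pair of mutually exclusive coding exons. Exon 3A (chr10:91122207-91122331, minus strand, 125 bases) is the exon known from heart and skeletal muscle, and exon 3B (chr10:91121922-91122043, minus strand, 122 bases) is known from most tissues. In a global alignment 77 of 122 aligned bases were identical (63.1%). Capitals mark bases that differ from the other exon or have no counterpart in it.
Slc25a3 exon 3A: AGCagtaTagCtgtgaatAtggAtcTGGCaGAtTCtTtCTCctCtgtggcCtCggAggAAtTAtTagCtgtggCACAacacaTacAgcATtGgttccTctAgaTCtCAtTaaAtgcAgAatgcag
Slc25a3 exon 3B: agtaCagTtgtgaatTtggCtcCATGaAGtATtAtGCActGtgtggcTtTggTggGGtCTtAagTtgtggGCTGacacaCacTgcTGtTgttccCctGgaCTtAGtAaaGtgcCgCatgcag

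The ADP/ATP carriers are shown by the coding stretch around their arginine-methionine signature, whose codons are in capitals. The Slc25a4 stretch lies at chr8:46208399-46208455 on the minus strand and that of Slc25a5 at chrX:36797819-36797875 on the plus strand. The Slc25a31 stretch crosses a splice junction and spans chr3:40722710-40724882 on the plus strand. Over the whole coding sequence Slc25a4 and Slc25a5 differed at 202 of 894 bases (77.4% identity), while Slc25a31 was 66.9% identical to Slc25a4 and 66.6% to Slc25a5. Only 1.32 estimated reads in replicate 1 and 0 in replicate 2 were given to Slc25a5-ps, a pseudogene named for Slc25a5.
Slc25a4: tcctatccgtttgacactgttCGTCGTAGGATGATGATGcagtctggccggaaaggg
Slc25a5: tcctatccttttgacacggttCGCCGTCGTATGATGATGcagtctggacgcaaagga
Slc25a31: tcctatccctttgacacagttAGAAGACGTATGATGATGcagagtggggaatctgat

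A last sequence, in lower case throughout, is the 116-base coding exon of Slc25a12 at chr2:71333605-71333720 on the minus strand. It is shown because the annotated transcript that received most of this gene's signal lacks it.
Slc25a12 exon: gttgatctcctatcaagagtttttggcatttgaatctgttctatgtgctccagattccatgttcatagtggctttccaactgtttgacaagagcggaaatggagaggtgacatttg

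Of the 47 members, 39 reached 1 TPM (a unit of transcript abundance, with reads divided by transcript length and scaled to a fixed total) in both libraries. That is 83.0% of the family, beside 58.2% of all protein-coding genes. The members spread widely, with 5 above 100 TPM, 18 at 10 to 100, 16 at 1 to 10 and 8 under 1. The family summed to 4846 TPM in replicate 1 and 4406 in replicate 2, or 0.563% and 0.524% of protein-coding TPM, while its members were 0.219% of the protein-coding genes. Slc25a4, Slc25a5 and Slc25a3, the carriers of ADP, ATP and phosphate, held 76.8% of the family's TPM in replicate 1 and 72.6% in replicate 2. The median detected member had 13.6 TPM and the median detected protein-coding gene 15.8 TPM.

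**Figure D1:**
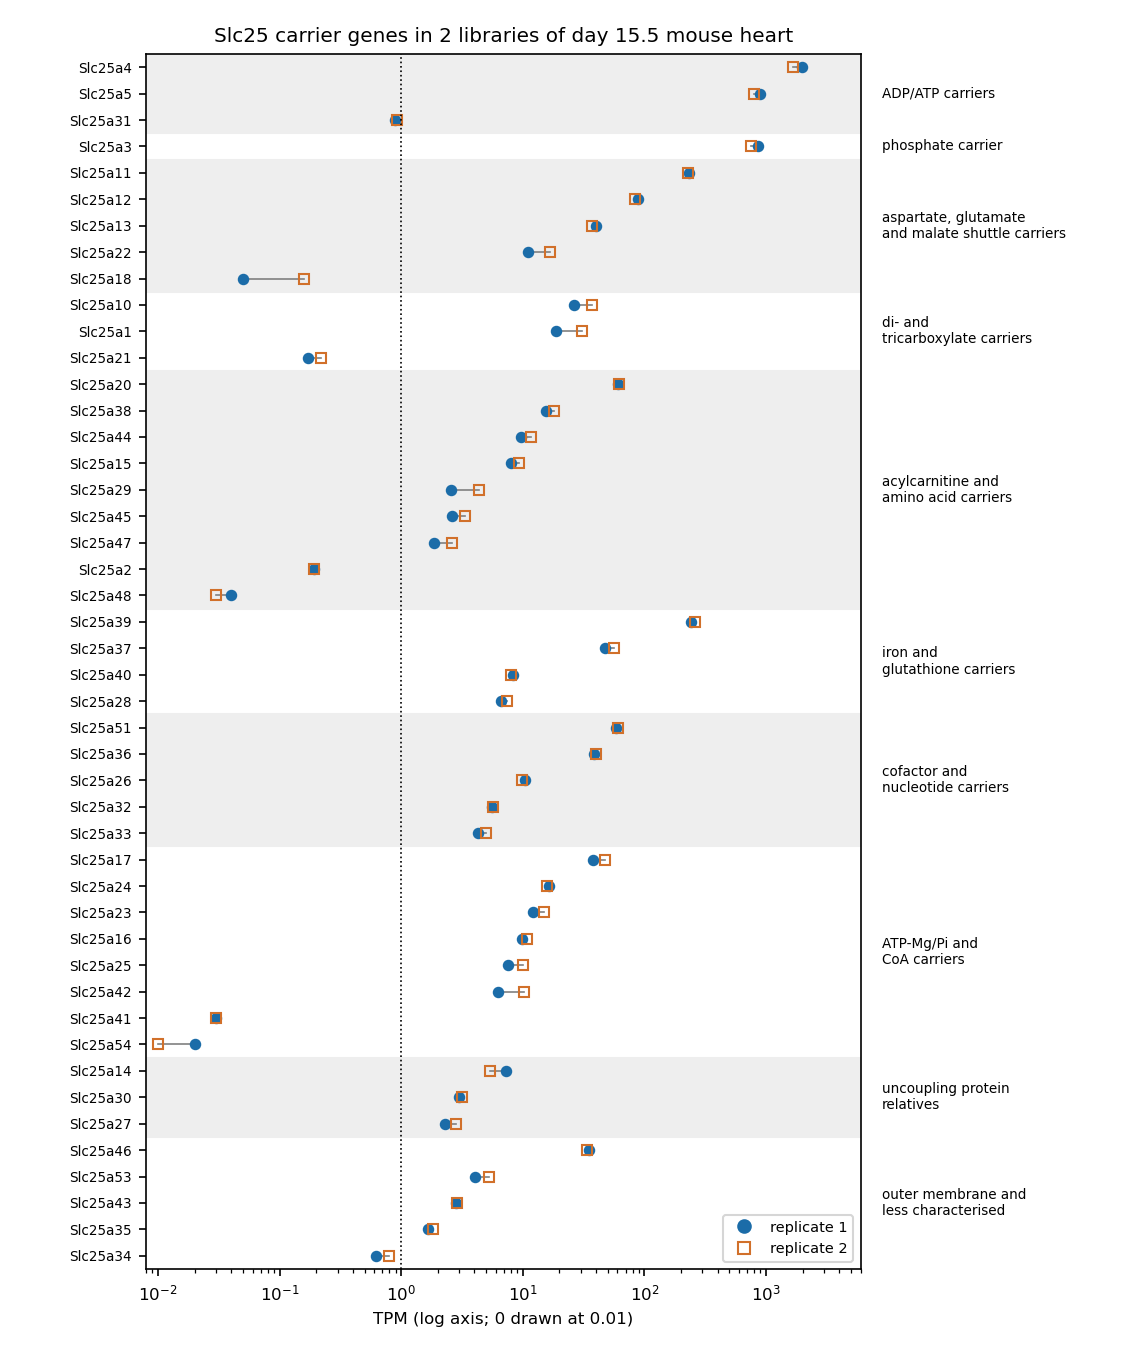
Level of 46 of the 47 Slc25 genes in TPM on a log axis, grouped by the substrate of the carrier, with filled circles for replicate 1, open squares for replicate 2 and a dotted line at 1 TPM. Slc25a4, Slc25a5 and Slc25a3 stand above all other members in both libraries, and 8 members lie under 1 TPM.

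The libraries held 41221435 and 38457396 estimated reads in Ensembl genes, and 1 read on a transcript of 1 effective kilobase was worth 0.0308 and 0.0345 TPM. All 10 cardiomyocyte markers were detected and summed to 38334 and 33603 TPM, with 2 of 10 past 1.5-fold lower in replicate 2 (Myl2 and Pln) and 0 higher. Liver, lung epithelium, neuron and thymus markers also had signal, none of them at 0 in both libraries, and their sums were higher in replicate 2. Fewer reached 1 TPM in both libraries: 5 of 10 liver, 5 of 6 lung epithelium, 3 of 8 neuron and 5 of 8 thymus markers. The liver list summed to 52.2 and 228 TPM with 10 of 10 genes past 1.5-fold higher, the lung epithelium list to 130 and 331 with 5 of 5, the neuron list to 12.1 and 73.2 with 8 of 8, and the thymus list to 17.0 and 176 with 6 of 6, each of the genes with at least 10 reads in both libraries. The skeletal muscle list summed to 21.8 and 29.5 TPM with 3 of 6 higher, and the brown fat list to 63.3 and 52.1 with 1 of 2 lower and Plin1 at 0 in both. The erythroid list summed to 66718 and 63444 TPM, most of it globin, with 3 of 10 genes past 1.5-fold higher (Gata1, Klf1 and Epb42) and 0 lower. In bulk tissue fewer cells of a type and less RNA per cell cannot be told apart.

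Slc25a4, the ADP/ATP carrier of muscle mitochondria (ENSMUSG00000031633.4, chr8:46206797-46211284), was the highest member, with 1969 TPM in replicate 1 and 1656 in replicate 2. By mean level it ranked 39 among all protein-coding genes. Slc25a5, the ADP/ATP carrier of most tissues (ENSMUSG00000016319.3, chrX:36795651-36798807), had 894 and 792 TPM and ranked 111. Slc25a4 stood above Slc25a5 in both libraries, by 2.20-fold and 2.09-fold. Slc25a4 thus made up 68.7% and 67.6% of ADP/ATP carrier TPM (68.2% ± 0.788, SD, n = 2) and Slc25a5 31.2% and 32.3%.

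Slc25a31, the ADP/ATP carrier known from germ cells, had 0.890 and 0.930 TPM from 44 and 41 reads, or 0.0311% and 0.0380% of the ADP/ATP carrier total. Transcript assignment bore on the leading gene. Within Slc25a4, 1593 and 1228 TPM were assigned to the coding transcript of 1925 bases, and 377 and 429 TPM to a 3-exon transcript of 1275 bases annotated as a retained intron, which ends before the last exon. The retained-intron share was thus 19.1% in replicate 1 and 25.9% in replicate 2. With coding transcripts alone Slc25a4 remained the larger at 62.5% of ADP/ATP carrier TPM.

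The genes around ATP export gave a scale for these levels. Atp5b, the catalytic beta subunit of ATP synthase, had 5111 and 4510 TPM, so Slc25a4 stood at 0.385 and 0.367 of it. Vdac1, a pore of the outer membrane through which the nucleotides pass on, had 399 and 378 TPM, and Slc25a4 was 4.94-fold and 4.38-fold above it. Ckmt2, the creatine kinase of muscle mitochondria that takes up exported ATP, had 43.3 and 35.7 TPM. The ratio of Slc25a4 to Ckmt2 was 45.5 and 46.4, and thus moved less between the libraries than either gene. Ckmt1, the other mitochondrial creatine kinase, was the lowest of the 4 ATP export partners at 0.730 and 1.94 TPM.

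Slc25a3 (ENSMUSG00000061904.8, chr10:91116574-91124059) had 857 and 750 TPM and ranked 118. It was within a narrow margin of Slc25a5, which was 1.04-fold and 1.06-fold higher. The carriers that exchange phosphate for ATP-Mg were far lower. Slc25a24 had 16.5 and 15.7 TPM, Slc25a23 12.2 and 15.0 and Slc25a25 7.54 and 9.98. Their paralog Slc25a41 had 1 read in each library, and Slc25a54 had 1 read in replicate 1 and 0 in replicate 2, for which 3 reads allow up to 0.0691 TPM. Slc25a3 made up 95.9% and 94.8% of this combined total. The order of Slc25a24 and Slc25a23 was not resolved, with a log2 ratio of 0.25 ± 0.27 (SD, n = 2), while Slc25a24 exceeded Slc25a25 by 2.19-fold and 1.57-fold.

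Transcripts with exon 3A led the Slc25a3 output in both libraries. The file lists 8 Slc25a3 transcripts, all of the same length as in GENCODE M21. The deposited share of gene TPM per transcript (IsoPct) put 75.7% in replicate 1 and 67.6% in replicate 2 on the 3A form, the sequence printed first above. The 3B form took 18.2% and 25.0%. Transcripts holding both exons, in whole or in part, took 3.30% and 4.87%, and those holding neither took 2.83% and 2.49%.

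Of the transcripts with exactly one of the exons, 80.6% and 73.0% carried 3A (76.8% ± 5.39, SD, n = 2). The log2 ratio of 3A to 3B was 2.06 and 1.44, with a mean of 1.75 ± 0.44 (SD, n = 2), so the 3A form was the higher by more than the spread. The libraries differed in its size. The 3A form had 648 TPM in replicate 1 and 507 in replicate 2, whereas the 3B form had 156 and 188. On scaled counts the 3A form was lower in replicate 2 by a log2 ratio of -0.59 and the 3B form was at 0.03. The authors' intervals for the main transcript were 624 to 645 and 485 to 506 TPM for 3A, and 137 to 151 and 168 to 183 TPM for 3B. They did not overlap between libraries, but this was not particular to the splice forms. The gene intervals of Slc25a4 (1921 to 1948 and 1611 to 1638 TPM) and Slc25a5 (869 to 888 and 766 to 785 TPM) did not overlap either. The share of all transcripts without overlap is not given here. No source used here gives the level of these intervals. The cardiomyocyte markers had a median log2 ratio of -0.42 over 10 genes, with Nppa higher in replicate 2 at 0.21. Their part in this difference was not tested.

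**Figure D2:**
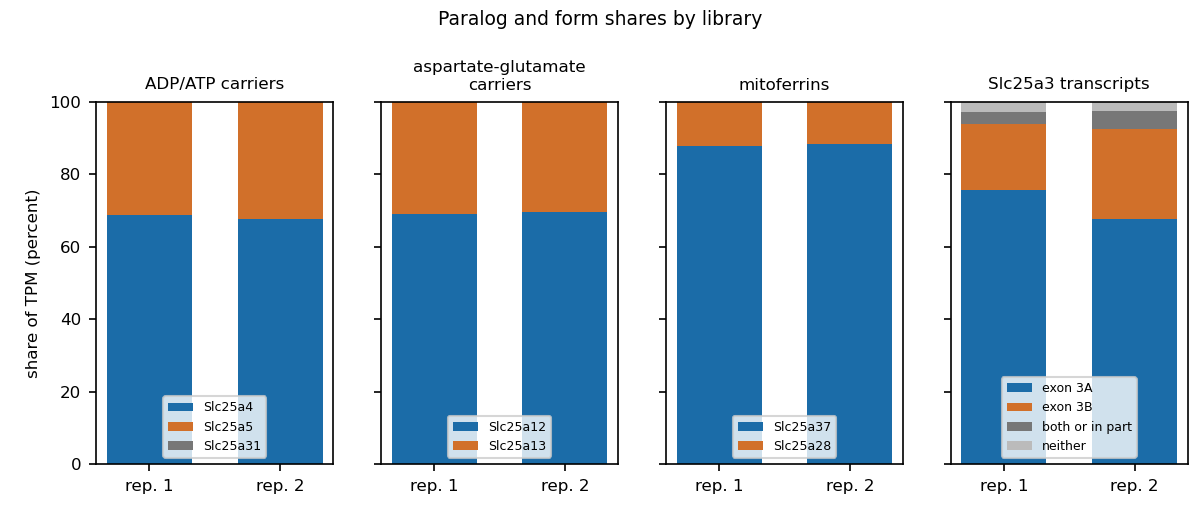
Stacked bars of the percent of TPM held by each paralog of the ADP/ATP carriers, aspartate-glutamate carriers and mitoferrins, and by each splice form of Slc25a3, in replicates 1 and 2. The gene shares differ by little between the libraries, while the exon 3A share of Slc25a3 is 75.7% in replicate 1 and 67.6% in replicate 2.

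The malate-aspartate shuttle carriers came below the ATP and phosphate carriers. Slc25a11, the oxoglutarate-malate carrier, had 231 and 229 TPM. Slc25a12 (ENSMUSG00000027010.12, chr2:71271063-71367749), the aspartate-glutamate carrier aralar of muscle and brain, had 88.7 and 84.4 TPM. Slc25a13 (ENSMUSG00000015112.11, chr6:6041218-6217173), the aspartate-glutamate carrier citrin known from liver, had 39.8 and 36.9 TPM. By gene TPM Slc25a12 made up 69.0% and 69.6% of the pair (69.3% ± 0.381, SD, n = 2). Their coding sequences were identical at 71.3% of aligned bases.

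That share rests on transcripts that are not annotated as coding. Only 6.95% and 7.72% of Slc25a12 TPM was assigned to its protein-coding transcript, of 6351 bases and 18 exons, which came to 6.17 and 6.52 TPM. A transcript of 2392 bases annotated as a target of nonsense-mediated decay took 66.2% and 67.3%. It has 17 exons, lacks the 116-base exon printed above, and carries 664 bases of the last exon where the coding transcript carries 4291. A further 24.7% and 22.9% went to a processed transcript of 550 bases that does hold the 116-base exon. Models with the exon thus received 28.1 and 25.8 TPM and the model without it 58.8 and 56.8 TPM. None of the 7 listed Slc25a12 transcripts joins the exon to the shorter last exon.

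Counting coding transcripts alone turned the order, with Slc25a12 at 14.2% of the pair against 69.3% by gene TPM. Estimated counts, which are not divided by length, gave 61.5%. Slc25a13 had all of its TPM in coding transcripts. Whether the 116-base exon was spliced into most Slc25a12 molecules was not tested, since the files hold no reads.

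**Figure D3:**
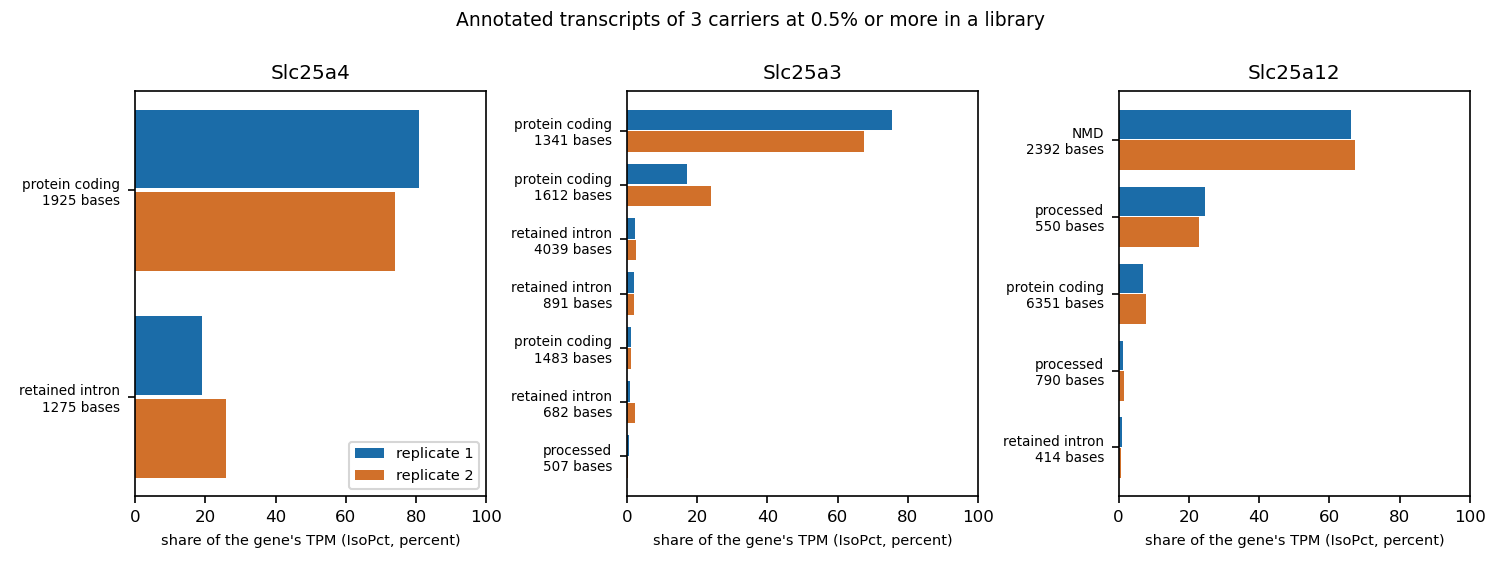
Share of gene TPM (IsoPct, percent) in each annotated transcript of Slc25a4, Slc25a3 and Slc25a12 at 0.5% or more in a library, with the biotype and length of the transcript, for replicate 1 and replicate 2. The coding transcript leads in Slc25a4 and Slc25a3, while in Slc25a12 the transcript annotated for nonsense-mediated decay (NMD) holds 66.2% and 67.3% and the coding one 6.95% and 7.72%.

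The enzymes of the shuttle gave a scale for its carriers. Mdh1, the cytosolic malate dehydrogenase, was the highest at 1467 and 1314 TPM, and the mitochondrial enzymes Mdh2 and Got2 had 933 and 829 TPM and 320 and 288 TPM. Got1, the cytosolic transaminase, had 193 and 155 TPM and thus stood below Slc25a11 in both libraries. Slc25a11 stood at 0.247 and 0.276 of Mdh2, and Slc25a12 at 0.277 and 0.293 of Got2. The genes listed for the competing glycerophosphate shuttle were low beside these malate-aspartate enzymes. Gpd1 was the lowest of the list at 1.34 and 1.78 TPM, and Gpd2 had 8.26 and 10.3 TPM. Gpd1l stood above both in each library, with 13.8 ± 2.44 TPM (SD, n = 2). Of the plain glutamate carriers, Slc25a22 had 11.1 and 16.6 TPM. Slc25a18 had 2 and 6 reads, and 32 of its exon bases overlap Atp6v1e1 on the opposite strand.

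The carriers of carboxylic acids were of middle rank. Slc25a10, the dicarboxylate carrier, had 26.6 and 37.0 TPM, and Slc25a1, the citrate carrier that supplies cytosolic acetyl units, had 18.6 and 30.6 TPM. Both were higher in replicate 2 by TPM, while on scaled counts their log2 ratios were 0.20 and 0.49, within 1.5-fold. Slc25a10 was above Slc25a1 by 1.43-fold and 1.21-fold. Slc25a21, the oxodicarboxylate carrier, had 11.3 and 15.8 reads and shares 189 exon bases with Pax9 on the opposite strand. Pyruvate enters through another protein family, and its carrier subunits Mpc1 and Mpc2 had 246 and 201 TPM and 310 and 194 TPM. Of the 8 listed genes for entry by such other routes, Vdac1 was the highest by mean, though Vdac2 was above it in replicate 1 (405 TPM), and Sfxn3, a sideroflexin, was the lowest at 12.8 and 16.8 TPM.

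Slc25a20 (ENSMUSG00000032602.6, chr9:108662088-108684641), which exchanges acylcarnitine for carnitine in fatty acid oxidation, had 60.8 and 61.4 TPM. It lay between the enzymes on either side of it in the pathway. Cpt1b, the muscle enzyme that makes acylcarnitine at the outer membrane, had 161 and 139 TPM. Cpt2, which returns the acyl group to CoA in the matrix, had 43.6 and 45.1 TPM, so that Slc25a20 was 1.39-fold and 1.36-fold above it. Cpt1a, the form known from liver, was the lowest of the 4 shuttle genes at 20.9 and 28.1 TPM.

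The amino acid carriers were low. Slc25a38, the glycine carrier of haem synthesis, had 15.6 and 18.1 TPM, Slc25a44, a branched-chain amino acid carrier, 9.74 and 11.6, and Slc25a15, the ornithine carrier, 8.03 and 9.39. Slc25a29, a carrier of basic amino acids, had 2.56 and 4.37 TPM and Slc25a45 2.63 and 3.36. Slc25a2, a paralog of Slc25a15, had 8 and 7 reads, and Slc25a48 had 4 and 3. Slc25a47, a carrier known from liver, had 1.87 and 2.63 TPM. The liver markers summed to 52.2 and 228 TPM, and their part in the Slc25a47 level was not tested.

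Slc25a39, a carrier required for mitochondrial glutathione import, was the fourth-ranked member at 243 and 263 TPM. Its paralog Slc25a40 had 8.35 and 8.04 TPM, and the ratio was 29.1 and 32.8. Of the mitoferrins, which carry iron into mitochondria, Slc25a37 (ENSMUSG00000034248.7, chr14:69241848-69285112), known from red cell precursors, had 47.6 and 56.3 TPM. Slc25a28 (ENSMUSG00000040414.7, chr19:43663801-43674881), the form of most tissues, had 6.57 and 7.43 TPM. Slc25a37 made up 87.9% and 88.3% of the pair (88.1% ± 0.330, SD, n = 2).

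Red cell transcripts stood beside these values. Alas2, the first haem enzyme in red cell precursors, had 309 and 348 TPM and was the highest of the 8 iron and haem genes, while Alas1, its counterpart in other cells, had 91.4 ± 5.13 TPM (SD, n = 2). Slc25a37 was 0.154 and 0.162 of Alas2, and Slc25a38 was 0.0504 and 0.0521 of it. The part of blood cells in the mitoferrin share was not tested.

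Cofactor and nucleotide carriers were all detected, 6 of 6. Slc25a51, the NAD carrier, led with 58.4 and 60.2 TPM. Slc25a36, a pyrimidine nucleotide carrier, had 38.2 and 40.0 TPM. The other pyrimidine nucleotide carrier, Slc25a33, had 4.25 and 4.94 TPM, which put Slc25a36 above it by 8.99-fold and 8.10-fold. Slc25a26, the S-adenosylmethionine carrier, had 10.5 and 9.91 TPM and Slc25a32, a folate or FAD carrier, 5.55 and 5.73.

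Slc25a17, a carrier of the peroxisome rather than the mitochondrion, had 37.5 and 47.6 TPM. The CoA carriers Slc25a16 and Slc25a42 had 9.89 and 10.8 TPM and 6.28 and 10.3 TPM, and their log2 ratio of 0.36 ± 0.41 (SD, n = 2) did not exceed the spread. Slc25a46, an outer membrane protein that acts in mitochondrial dynamics, had 35.0 and 33.4 TPM. The less characterised Slc25a43 had 2.83 and 2.85 TPM, Slc25a35 1.66 and 1.84, and Slc25a34 0.620 and 0.790. Slc25a35 shares 1151 exon bases with Rangrf on the opposite strand, which had 65.6 and 55.8 TPM. Slc25a53 had 4.04 and 5.32 TPM, but 1.49% and 2.07% of it, or 0.0600 and 0.110 TPM, lay in its coding transcripts.

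The relatives of the uncoupling proteins were low. Slc25a14 had 7.21 and 5.39 TPM, Slc25a30 3.01 and 3.15, and Slc25a27 2.30 and 2.80. Uncoupling proteins belong to the same family under other symbols, and Ucp2 was well above these at 96.2 and 163 TPM. Ucp1, the uncoupling protein of brown fat, was the lowest of that list at 0.0200 and 0 TPM. Mtch2, an outer membrane insertase built on the carrier fold, was the highest of it by mean at 192 and 189 TPM, with Mtch1 above it in replicate 2 (159 and 209 TPM). Carriers reach the inner membrane through a dedicated import route, and all 13 of its listed genes were detected, by mean from Timm29 at 21.6 and 24.5 TPM to Timm8b at 227 and 174 TPM, with Tomm22 above Timm8b in replicate 2 (194 and 178 TPM).

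Many members that were close in level could not be ordered. Ranked by mean TPM, the 47 genes form 46 neighbouring pairs, and in 20 of them the order turned in a library. None of these lay among the first 9 members, which ran Slc25a4, Slc25a5, Slc25a3, Slc25a39, Slc25a11, Slc25a12, Slc25a20, Slc25a51 and Slc25a37. Slc25a17, Slc25a36 and Slc25a13, among the next members, exchanged places between libraries. For 23 of the 47 genes over 99% of TPM lay in coding transcripts in both libraries. Exon bases were shared with a gene on the opposite strand by 12 members, among them Slc25a11 (189 bases with Rnf167, at 62.4 and 67.1 TPM) and Slc25a25 (379 bases with Naif1, at 3.28 and 4.17 TPM), and the split of reads there is uncertain. Among detected members only Slc25a12 and Slc25a53 had under 50% of TPM in coding transcripts in both libraries.

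The difference between the pools depended on the scaling. On counts scaled by edgeR's TMM method the 42 members with at least 10 reads in both libraries had a median log2 ratio of -0.05 for replicate 2 over replicate 1, beside -0.01 over 14711 protein-coding genes. Their ratios ran from -0.61 to 0.49. None of 42 was past 1.5-fold higher in replicate 2, beside 11.4% of protein-coding genes, and 1 of 42 was past 1.5-fold lower, beside 3.03%. That member was Slc25a14, with 311 and 215 reads and a log2 ratio of -0.61 (95% exact counting interval -0.86 to -0.35).

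The most abundant carriers lay at the lower end. The ratio was -0.52 for Slc25a4, -0.41 for Slc25a5 and -0.40 for Slc25a3, all within 1.5-fold. The median was -0.42 for the cardiomyocyte markers, -0.39 for the shuttle enzymes, and -0.36 for the ATP export partners and for other metabolite entry. It was -0.31 for carrier import, -0.20 for the carnitine shuttle, -0.18 for iron and haem, and 0.07 for the family under other symbols. The cause of the carriers' ratios was not tested. The upper end held Slc25a1 at 0.49 (0.37 to 0.61), Slc25a29 at 0.49 (0.19 to 0.79), Slc25a42 at 0.45 (0.30 to 0.60) and Slc25a22 at 0.30 (0.17 to 0.44). Counting intervals lay wholly above 0 for 7 members and wholly below 0 for 16, with no matching share over all protein-coding genes given here. These intervals cover counting error only, so they say that the libraries differ and not that the pools differ beyond the spread of embryos. Scaling moved these values: with total gene counts the median over all protein-coding genes was 0.17 and that over the members 0.12, and Slc25a1, Slc25a21, Slc25a29 and Slc25a42 were then past 1.5-fold higher and Slc25a14 was not past it. With spike-in counts the medians were -0.92 and -0.97, so the median protein-coding gene was itself past 1.5-fold lower in replicate 2. On that scale 38 of 42 members were past 1.5-fold lower. The share of all protein-coding genes past 1.5-fold is given here for the TMM scale only.

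**Figure D4:**
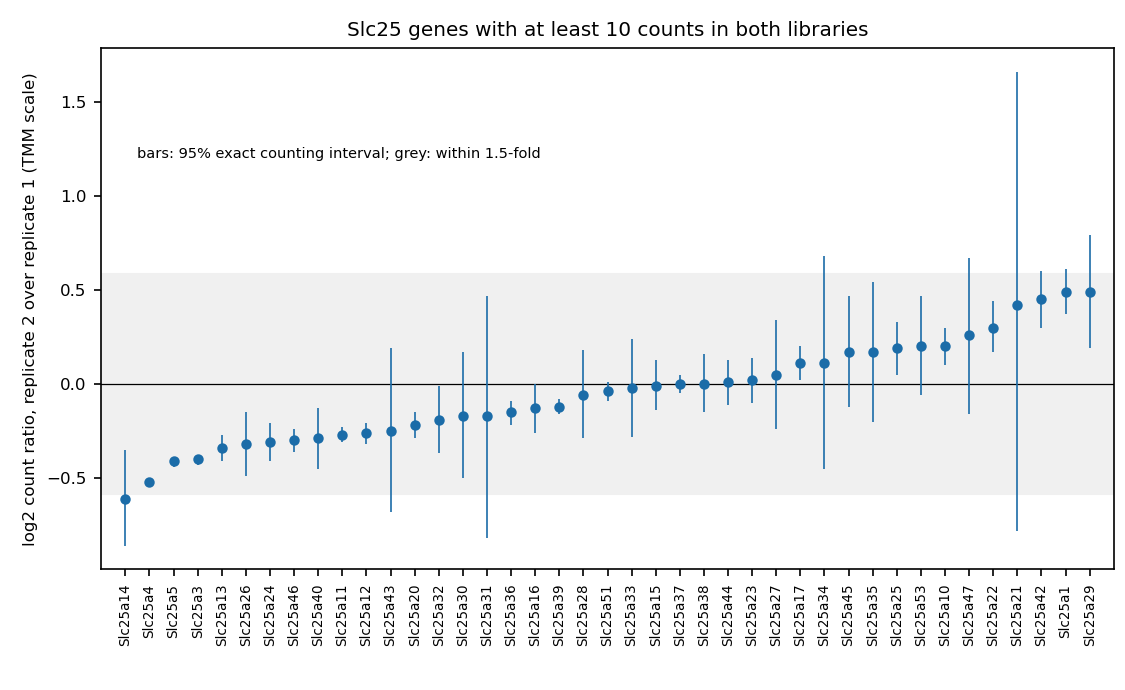
Log2 ratio of TMM-scaled estimated counts, replicate 2 over replicate 1, for 41 of the 42 Slc25 genes with at least 10 reads in both libraries, ordered by ratio, with 95% exact counting intervals as bars and the range within 1.5-fold in grey. Slc25a14 lies below the grey range at -0.61, and Slc25a1 and Slc25a29 are highest at 0.49.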

How the data were processed

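RNA-seq libraries of 2 pools of embryonic mouse heart were used as deposited. Per the file headers, genes and transcripts were quantified on mm10 with GENCODE M4 from a transcriptome alignment. Aligner, quantifier and use of strand: not given in the sources used here. Members overlapping an antisense gene are therefore uncertain (12 of 47 by exon bases). The deposited expected counts are estimated reads, with reads that fit several features shared out. The deposited TPM divide them by effective length. The deposited percent (IsoPct) is each transcript's share of gene TPM. The authors' TPM bounds and effective lengths were read as deposited signal columns.

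Symbols, biotypes and positions came from GENCODE M21, on the same build, by gene identifier without version (42462 of 43346 Ensembl genes matched). Spike-ins (97) and 26248 other features stayed out of library sizes. Of the members, 31 shared no reads, with a deposited posterior SD of 0. Estimated counts were scaled with edgeR 4.0.16 (TMM) and, as an alternative, DESeq2 1.42.0 size factors, in R 4.3.3, neither for a test. A gene was called different past 1.5-fold with at least 10 reads in both libraries. Intervals are exact, at 95%, and cover counting error only, as does the floor of 3 reads. Sequences were aligned with Biopython 1.88. Members are named, with the highest and lowest gene of each partner list and those a ratio needs, except 2 genes that are not reported here but entered all counts and sums. Other partner genes (Mpc1, Mpc2, Gpd2, Gpd1l, Got1, Alas1, Ucp2, Mtch1, Vdac2, Tomm22) were named after their values were seen. Members, role groups, gene lists and ratios were chosen with earlier results of these data known, and the ratios after their values were seen.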

Additional observations from a re-analysis of the deposited data

How the results depend on the processing

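The exon 3A share of Slc25a3 and the number of detected members stayed within the spread or within 1.5 times under all alternatives run. With 2 libraries, leaving one out cannot move a share past the SD and says nothing of stability. Estimated counts not divided by length gave 76.0% for Slc25a4 among ADP/ATP carriers, 61.5% for Slc25a12 among aspartate-glutamate carriers and 95.6% for Slc25a37 among mitoferrins. They gave 90.1% for Slc25a3 among Slc25a3 and the ATP-Mg carriers, and 0.613% for the family among protein-coding genes. With coding transcripts only, the shares were 62.5% for Slc25a4, 14.2% for Slc25a12 and 87.2% for Slc25a37. Without globins and the mitochondrial genome the family held 0.672% of protein-coding TPM. The median log2 ratio between libraries was 0.12 with total gene counts, -0.97 with spike-in counts and 0.13 on deposited TPM with a pseudocount of 0.1, where the median over all protein-coding genes was 0.17, -0.92 and 0.22. Members past 1.5-fold numbered 4 with total gene counts and 38 with spike-in counts (all lower in replicate 2). They numbered 4 on deposited TPM and 2 from at least 1 read. The share of all protein-coding genes past 1.5-fold is given here for the TMM scale only. On that scale, with at least 10 reads in both libraries, 0 members passed 2-fold. Slc25a14 had -0.43 with total gene counts and -0.41 on deposited TPM, inside 1.5-fold. The cause of these shifts was not tested. Depth limits the 5 members with fewer than 10 reads in a library. No paired analysis was possible because there is 1 group.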
